A study of Homo sapiens with 12 samples.

Results

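The 44 genes described here encode the integrins and the proteins of focal adhesions and caveolae, followed in the human glioblastoma line U251 after knockdown of CD44 and treatment with temozolomide. They were taken by gene symbol from a table of 20289 genes, and each of the 44 symbols was found in 1 row. Of the 44, 42 had enough reads to be tested. ITGA8 and ITGB6 did not: ITGA8 reached at most 0.0663 and ITGB6 at most 0.763 CPM in any library (CPM is the usual per-million scaling of counts to the library total, here adjusted by TMM factors of edgeR). U251 is an established line, so every value refers to 1 tumour line grown as a culture. The 4 groups of 3 libraries were cells with a CD44 hairpin and temozolomide (knockdown temozolomide), cells with a control hairpin and temozolomide (control temozolomide), cells with the CD44 hairpin and the solvent DMSO (knockdown DMSO), and cells with the control hairpin and DMSO (control DMSO). All hairpins came from lentivirus, temozolomide was given at 50 µM, and both treatments lasted 24 h. The DMSO controls are named shCtrl in the labels and the temozolomide controls NC, both with the genotype given as WT, and both were taken to carry a control hairpin. Whether the 3 libraries of each group were grown apart is not stated, and p-values therefore cover only the spread between the libraries at hand.

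Integrins are receptors made of 1 alpha and 1 beta chain that hold a cell to its matrix. Talin and kindlin bind the beta chain inside the cell and switch the receptor on, while vinculin, alpha-actinins, filamin and tensins tie it to actin. Focal adhesion kinase (PTK2) and SRC signal from the same site through the scaffolds paxillin, BCAR1 and NEDD9, and the kinase-like protein ILK sits there with LIMS1 and PARVA. Caveolins and CAVIN1 coat caveolae, small pits of the surface membrane. CD44 is the main receptor for hyaluronan, a matrix sugar, and temozolomide is the alkylating drug used against glioblastoma.

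Totals ran from 13506946 to 24757977 estimated counts per library. A floor of 3 counts corresponded to 0.121 to 0.222 CPM, for counting error only. CD44 had 319.8, 326 and 333 CPM in the knockdown temozolomide libraries, against 851, 808 and 804 CPM in the control temozolomide libraries. Under DMSO, CD44 had 421, 419 and 419 CPM in the knockdown libraries, against 1127, 1102 and 1043 CPM in the control libraries. CD44 was thus lower in each knockdown library than in each control library of the same treatment, with log2 fold changes of −1.33 under temozolomide and −1.38 under DMSO. Among the glial and glioblastoma markers, VIM averaged 1717 FPKM (fragments per kilobase of transcript, scaled to depth), SOX2 134.7 FPKM and EGFR 12.6 FPKM, whereas GFAP averaged 0.499 FPKM, and OLIG2 and CHI3L1 were at 0 in 11 of 12 libraries each. The members were well expressed. Their median mean level was 114 CPM, against 30 CPM over the 12821 genes tested, and their median transcript GC content was 51.1%, against 47.9%.

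With knockdown, the share of members called higher was above that of all genes, and the share called lower was not. Temozolomide moved the members mainly down. A gene was called at an adjusted p below 0.05, by the quasi-likelihood test of edgeR and Benjamini-Hochberg adjustment over all 12821 genes, and every adjusted p below comes from that fit unless another is named. Under temozolomide, 21 members were higher and 8 lower in knockdown than in control cells (50.0% and 19.0% of 42). Together these are 69.0% of 42, where 42.3% of all genes were called (22% higher and 20.3% lower). Under DMSO, 17 were higher and 7 lower (40.5% and 16.7% of 42). Together these are 57.1% of 42, where 42.6% of all genes were called (21.1% higher and 21.4% lower). With temozolomide, 1 member was higher and 22 lower in knockdown cells, 54.8% of 42, where 22.3% of all genes were called (9.05% higher and 13.2% lower). In control cells, 1 was higher and 23 lower with temozolomide, 57.1% of 42, where 27.5% of all genes were called (11.7% higher and 15.8% lower). The median log2 fold change of the members was 0.12 for knockdown under temozolomide, 0.09 for knockdown under DMSO, −0.20 for temozolomide in knockdown cells and −0.21 for temozolomide in control cells. The same medians over all genes lay between −0.004 and 0.008. Knockdown and control libraries did not overlap for 29 members under temozolomide, where 50.8% of all genes did not, and for 29 under DMSO, where 51.3% did not. Temozolomide and DMSO libraries did not overlap for 33 members in knockdown cells, against 37.2% of all genes, and for 29 in control cells, against 39.7%. Shares of the members, and of the gene lists below, were not matched for level to those of all genes. The members' median level was 114 CPM, against 30 CPM over all genes tested, and small changes are called more readily at higher counts. The part of level in these shares was not tested.

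**Figure D1:**
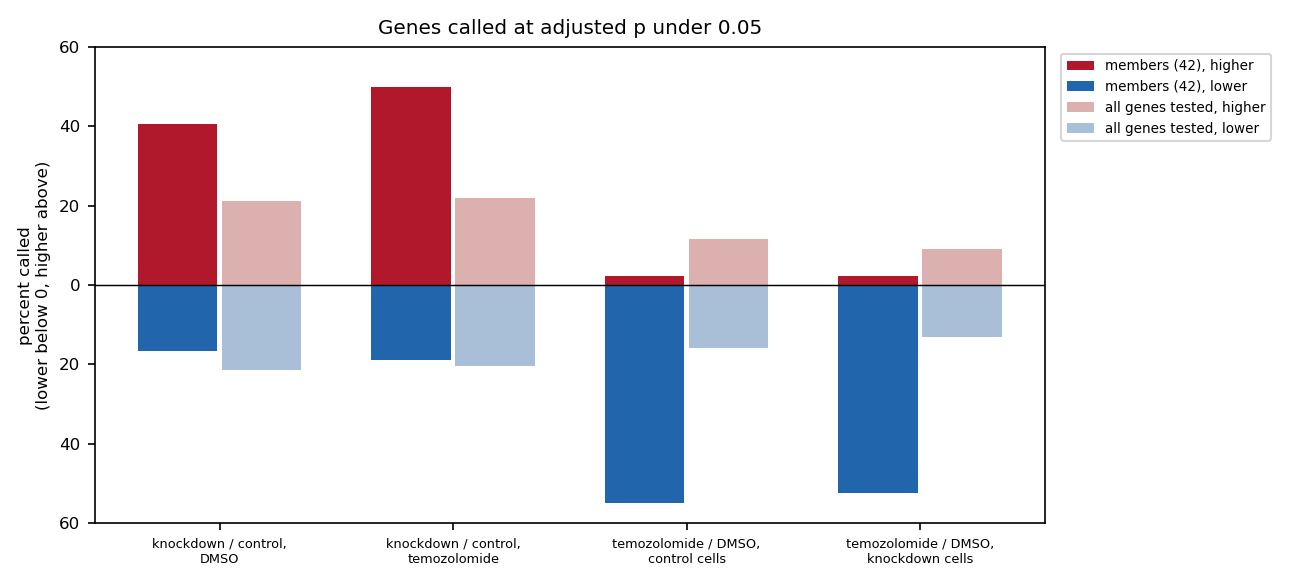
Percent of the 42 tested members (dark bars) and of all 12821 tested genes (pale bars) that were called, higher above 0 and lower below 0, for each of 4 comparisons. The members' bars for lower genes with temozolomide reach 52.4% in knockdown and 54.8% in control cells, against 13.2% and 15.8% of all genes.

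These splits moved with the scaling. With library totals alone in place of TMM factors, 22 members were higher and 5 lower with knockdown under DMSO, 5 higher and 20 lower with temozolomide in control cells, and 6 higher and 16 lower with temozolomide in knockdown cells. This scaling also raised the median log2 fold change of all genes, to 0.045 and 0.04 for knockdown under temozolomide and DMSO. For temozolomide in knockdown and control cells that median of all genes became 0.067 and 0.063. The calls lost with library totals alone were FERMT1 and LPP with knockdown under temozolomide, ITGB5 and VASP with knockdown under DMSO, ITGA3, ITGA6, ITGA9, TLN2, ZYX and FERMT2 with temozolomide in knockdown cells, and ITGA7, ITGB8 and PTK2 with temozolomide in control cells. In each of 3 limma fits on log2 FPKM values, PTK2, FERMT1, LPP and TGFB1I1 lost their calls with knockdown under temozolomide and VASP with knockdown under DMSO. The same fits ended the temozolomide calls on ITGA3, ITGA6, TLN2, ZYX, ACTN1, FERMT2, LPP and VASP in knockdown cells, and on ITGA7, ITGB8, TLN2, PTK2, SRC, BCAR1 and TGFB1I1 in control cells. Base composition also moved with the groups: genes above 60% GC stood at −0.10 to −0.04 on the log2 scale relative to genes below 40% GC in the knockdown DMSO libraries, against 0.07 to 0.21 in the control DMSO libraries. The control temozolomide libraries, at −0.13 to 0.04, also lay below the control DMSO libraries without overlap, while the knockdown temozolomide libraries, at −0.12 to 0.08, overlapped with the knockdown DMSO libraries. With that trend removed, 17 members were higher and 8 lower with knockdown under DMSO, and their median log2 fold change was 0.14, while with temozolomide in control cells 0 were higher and 24 lower, with a median of −0.17.

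**Figure D2:**
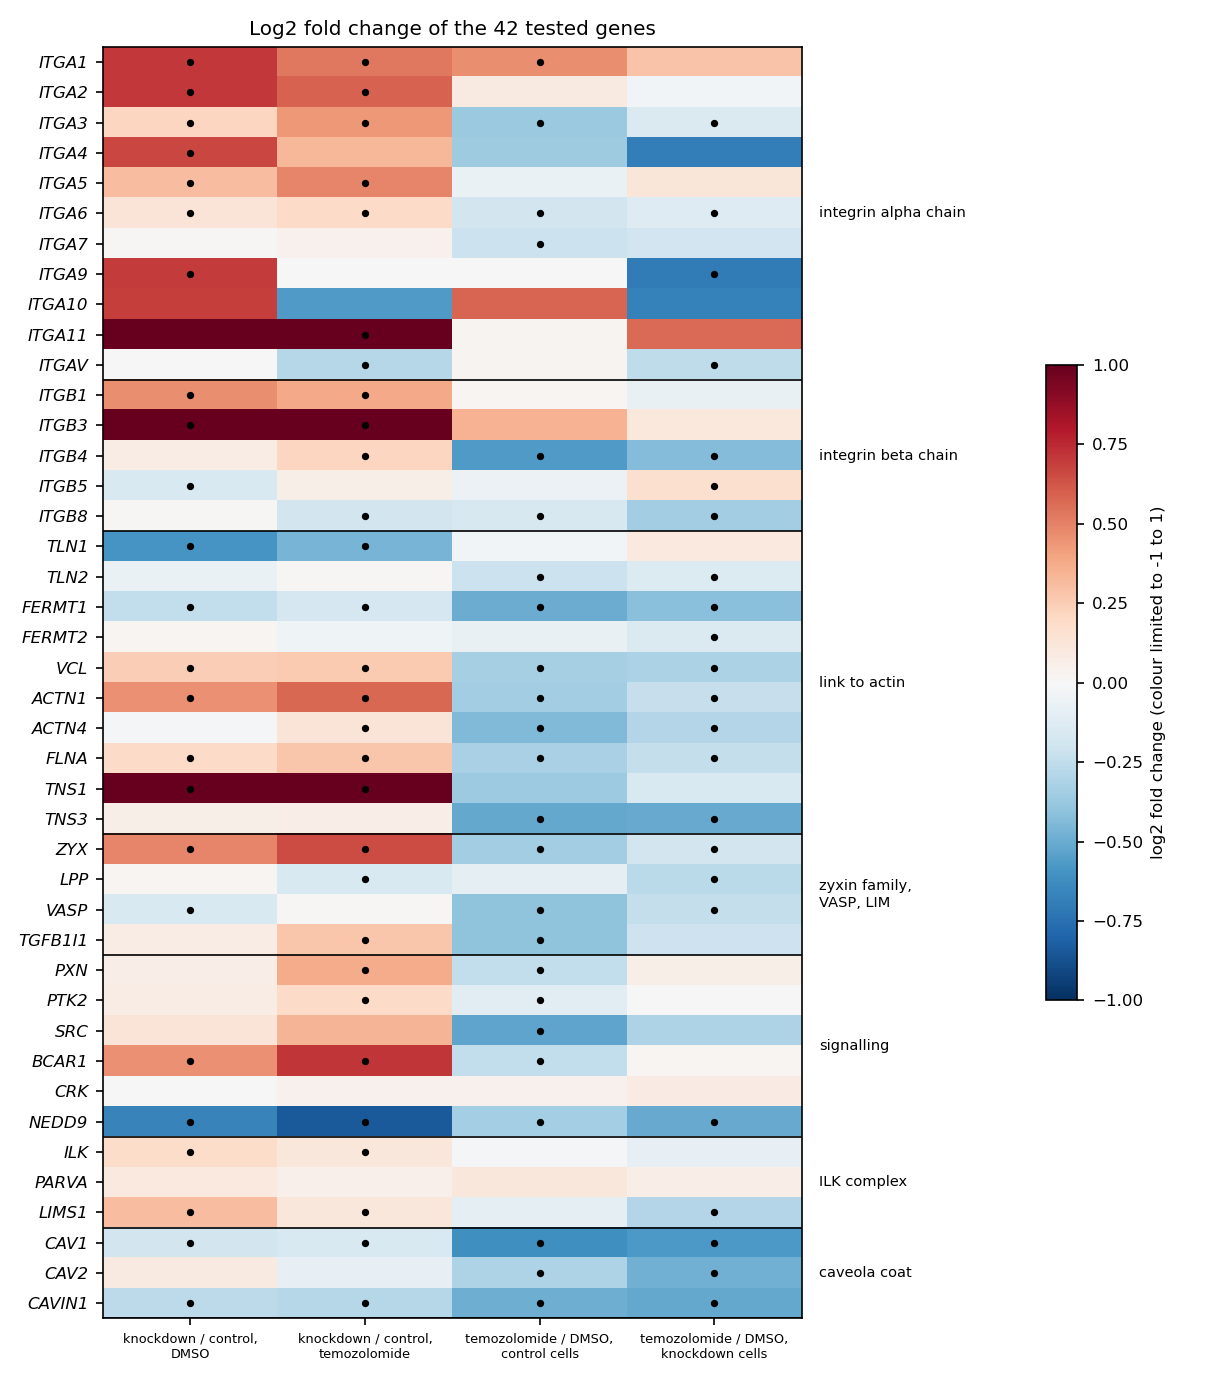
Log2 fold change of each of the 42 tested members (rows, grouped by role) in 4 comparisons (columns), with the colour limited to between −1 and 1. Dots mark calls at adjusted p below 0.05. The temozolomide columns are blue for nearly every protein between integrin and actin and for the 3 caveola genes, and the knockdown columns are red for ITGA2, ITGB1, ZYX, ACTN1 and BCAR1 and blue for TLN1 and NEDD9.

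Alpha chains decide which matrix protein an integrin binds, and of the 11 tested, knockdown raised 6 and lowered 1 under temozolomide, and raised 7 and lowered 0 under DMSO. The called share was 63.6% under each treatment, against 42.3% of all genes under temozolomide and 42.6% under DMSO. ITGA2, the alpha chain of a collagen receptor, rose under both treatments. The gene lies at chr5:52989326-53094779, plus strand (GRCh38, as the other gene spans given here, from GENCODE 29). ITGA2 had 78.7, 72.8 and 77.5 CPM in the knockdown temozolomide libraries, against 48.8, 52.7 and 50.4 CPM in the control temozolomide libraries. Under DMSO, ITGA2 had 75.2, 78.8 and 78.6 CPM in the knockdown libraries, against 50.3, 45.6 and 46.9 CPM in the control libraries. Knockdown libraries were higher than control libraries without overlap under both treatments, and temozolomide and DMSO libraries overlapped in both kinds of cell. The log2 fold change of ITGA2 with knockdown was 0.59 (SE 0.05, adjusted p = 3.3e-09) under temozolomide and 0.70 (SE 0.05, adjusted p = 3.6e-10) under DMSO. ITGA1, the other collagen-binding alpha chain of the same genomic neighbourhood, was far scarcer. ITGA1 had 5.28, 6.002 and 4.83 CPM in the knockdown temozolomide libraries, against 3.73, 3.76 and 3.76 CPM in the control temozolomide libraries. Under DMSO, ITGA1 had 5.01, 4.13 and 4.22 CPM in the knockdown libraries, against 2.71, 2.92 and 2.53 CPM in the control libraries. Knockdown libraries of ITGA1 lay above control libraries of the same treatment without overlap. Its knockdown rises were 0.53 (SE 0.15, adjusted p = 0.00596) under temozolomide, a call that ended without knockdown temozolomide library 2 (adjusted p = 0.0521), and 0.71 (SE 0.16, adjusted p = 0.00137) under DMSO. ITGA1 shares 2.56% of its exon bases with PELO on the same strand. It was the only member called higher with temozolomide in control cells, at 0.46 (SE 0.16, adjusted p = 0.0396), and that call ended when any 1 of 5 libraries was left out (adjusted p = 0.075 to 0.125).

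ITGA3, ITGA5 and ITGA6 bind laminins or, for ITGA5, fibronectin. ITGA3 was the most abundant alpha chain. ITGA3 had 1315, 1199.8 and 1241 CPM in the knockdown temozolomide libraries, against 989.5, 888 and 899 CPM in the control temozolomide libraries. Under DMSO, ITGA3 had 1377, 1389 and 1389 CPM in the knockdown libraries, against 1234, 1198 and 1157 CPM in the control libraries. No groups overlapped within any of the 4 comparisons: ITGA3 was higher in knockdown than in control cells under both treatments, and lower with temozolomide than with DMSO in both kinds of cell. Its knockdown log2 fold change was 0.44 (SE 0.04, adjusted p = 1.7e-08) under temozolomide and 0.21 (SE 0.04, adjusted p = 0.00019) under DMSO, and the difference of these values was 0.22 (SE 0.06, adjusted p = 0.0526). With temozolomide ITGA3 fell by 0.15 on the log2 scale in knockdown cells, a call that ended without knockdown temozolomide library 2 (adjusted p = 0.0753), and its called change in control cells was −0.37. ITGA5 had 115, 109 and 105 CPM in the knockdown temozolomide libraries, against 82.7, 74.0 and 77.2 CPM in the control temozolomide libraries. Under DMSO, ITGA5 had 102, 103 and 99.3 CPM in the knockdown libraries, against 84.1, 80.5 and 81.0 CPM in the control libraries. ITGA5 was higher with knockdown under both treatments without overlap, by 0.49 (SE 0.04, adjusted p = 1.7e-08) under temozolomide and 0.31 (SE 0.05, adjusted p = 1.4e-05) under DMSO. Its temozolomide changes of 0.12 in knockdown cells and −0.07 in control cells did not pass the test. ITGA6 had 393, 376 and 402 CPM in the knockdown temozolomide libraries, against 350.1, 336 and 341 CPM in the control temozolomide libraries. Under DMSO, ITGA6 had 425, 422 and 429 CPM in the knockdown libraries, against 400.4, 404 and 365 CPM in the control libraries. The groups of ITGA6 did not overlap in any of the 4 comparisons, but the steps were small: 0.19 and 0.13 with knockdown under temozolomide and DMSO, and −0.13 and −0.19 with temozolomide in knockdown and control cells. The knockdown call on ITGA6 under DMSO ended without control DMSO library 3 (adjusted p = 0.0805) and with the GC trend removed (adjusted p = 0.29), and its temozolomide call in knockdown cells ended without knockdown DMSO library 1 or 3 or knockdown temozolomide library 2 (adjusted p = 0.0551 to 0.129).

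ITGAV, the alpha chain of the vitronectin receptors, went another way. ITGAV had 583, 622 and 630.2 CPM in the knockdown temozolomide libraries, against 712, 742 and 780.1 CPM in the control temozolomide libraries. Under DMSO, ITGAV had 741, 717 and 726 CPM in the knockdown libraries, against 745, 771 and 676 CPM in the control libraries. The knockdown temozolomide libraries were the low ones, and the other 9 libraries overlapped. The knockdown log2 fold change of ITGAV was −0.28 (SE 0.04, adjusted p = 2.1e-05) under temozolomide, which was called, and −0.01 (SE 0.04, adjusted p = 0.931) under DMSO, which was not. With temozolomide it was −0.25 (SE 0.04, adjusted p = 0.000261) in knockdown cells, which was called, and 0.03 (SE 0.04, adjusted p = 0.7) in control cells, which was not. The other 5 tested alpha chains were scarce. ITGA7, a laminin receptor chain, averaged 18.5 ± 0.606 CPM in knockdown temozolomide, 17.8 ± 1.81 CPM in control temozolomide, 21.0 ± 0.729 CPM in knockdown DMSO and 20.8 ± 0.344 CPM in control DMSO cells (SD, n = 3 each), and its 1 call, −0.22 (SE 0.08, adjusted p = 0.0442) with temozolomide in control cells, ended when any 1 of 8 libraries was left out. ITGA4, ITGA9, ITGA10 and ITGA11 stayed below 3 CPM in every library. Of these, ITGA4 and ITGA9 were called higher with knockdown under DMSO, at 0.67 (SE 0.26, adjusted p = 0.0434) and 0.70 (SE 0.25, adjusted p = 0.0271), and their calls ended when any 1 of 7 and any 1 of 4 libraries was left out. ITGA9 was also called lower with temozolomide in knockdown cells, at −0.70 (SE 0.24, adjusted p = 0.0441), a call lost without any 1 of 8 libraries. ITGA11, a collagen receptor chain, was called higher with knockdown under temozolomide at 1.60 (SE 0.45, adjusted p = 0.00717), with 0.997 ± 0.069 CPM in knockdown and 0.314 ± 0.171 CPM in control cells. ITGA10 was called in no comparison.

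Of the 5 beta chains tested, ITGB1 was by far the most abundant, with 323.2 FPKM on average, which was also the highest level of any member. ITGB1 pairs with most alpha chains, and its gene lies at chr10:32900319-33005792, minus strand. ITGB1 had 1335, 1338 and 1377 CPM in the knockdown temozolomide libraries, against 1032, 1035 and 1052 CPM in the control temozolomide libraries. Under DMSO, ITGB1 had 1428, 1385 and 1441 CPM in the knockdown libraries, against 1034, 1039.6 and 1003 CPM in the control libraries. Every knockdown library was above every control library, while the 3 temozolomide and 3 DMSO control libraries overlapped. Knockdown changed ITGB1 by 0.38 (SE 0.03, adjusted p = 1.0e-09) under temozolomide and 0.47 (SE 0.03, adjusted p = 3.9e-11) under DMSO. ITGB4, which pairs only with ITGA6 and anchors epithelial hemidesmosomes, had its largest changes with the drug. ITGB4 had 419.5, 436 and 428 CPM in the knockdown temozolomide libraries, against 381, 362 and 364 CPM in the control temozolomide libraries. Under DMSO, ITGB4 had 563, 594 and 577 CPM in the knockdown libraries, against 545, 552 and 548 CPM in the control libraries. The temozolomide libraries of ITGB4 lay below every DMSO library. Temozolomide changed ITGB4 by −0.44 (SE 0.03, adjusted p = 2.6e-09) in knockdown cells and −0.57 (SE 0.03, adjusted p = 8.3e-11) in control cells, and knockdown changed it by 0.21 (SE 0.03, adjusted p = 1.7e-05) under temozolomide. Its knockdown value under DMSO, 0.08 (SE 0.03, adjusted p = 0.0554), was not called although the libraries did not overlap.

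ITGB5 and ITGB8 pair with ITGAV, and ITGB3 pairs with ITGAV in cells other than platelets. ITGB5 had 146, 136 and 131 CPM in the knockdown temozolomide libraries, against 145, 121 and 129 CPM in the control temozolomide libraries. Under DMSO, ITGB5 had 124, 127 and 120.3 CPM in the knockdown libraries, against 141, 132 and 140.4 CPM in the control libraries. ITGB5 groups overlapped under temozolomide and not under DMSO, where knockdown gave −0.16 (SE 0.05, adjusted p = 0.0264). In knockdown cells temozolomide gave 0.16 (SE 0.05, adjusted p = 0.0427), the only member called higher there. Both calls on ITGB5 were fragile: the knockdown call ended without control DMSO library 1 or 3 or knockdown DMSO library 1 or 3 (adjusted p = 0.0574 to 0.113), and the temozolomide call when any 1 of 8 libraries was left out (adjusted p = 0.0504 to 0.185). ITGB8 had 154, 170.3 and 159 CPM in the knockdown temozolomide libraries, against 171, 192 and 186 CPM in the control temozolomide libraries. Under DMSO, ITGB8 had 214, 196 and 207 CPM in the knockdown libraries, against 209.5, 208 and 194 CPM in the control libraries. ITGB8 was lowest in the knockdown temozolomide libraries, and its 2 DMSO groups overlapped. Its changes were −0.18 and 0.01 with knockdown under temozolomide and DMSO, and −0.35 and −0.16 with temozolomide in knockdown and control cells, and the knockdown value under DMSO did not pass the test. The fall of ITGB8 with temozolomide in control cells was lost without control DMSO library 1 or 2 or control temozolomide library 1 (adjusted p = 0.0602 to 0.111). ITGB3 had 2.22, 3.20 and 2.58 CPM in the knockdown temozolomide libraries, against 1.00, 0.847 and 0.878 CPM in the control temozolomide libraries. Under DMSO, ITGB3 had 2.53, 1.97 and 2.95 CPM in the knockdown libraries, against 0.526, 0.796 and 0.822 CPM in the control libraries. ITGB3 was higher in every knockdown library than in every control library, by 1.54 (SE 0.26, adjusted p = 5.9e-05) under temozolomide and 1.79 (SE 0.28, adjusted p = 3.2e-05) under DMSO, at levels of 3.20 CPM or less. Of its exon bases, 51.57% are also annotated to another gene on the same strand, so its counts are uncertain. On the FPKM scale, ITGB3 stood at 0.34 FPKM in both control DMSO library 2 and knockdown DMSO library 2.

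**Figure D3:**
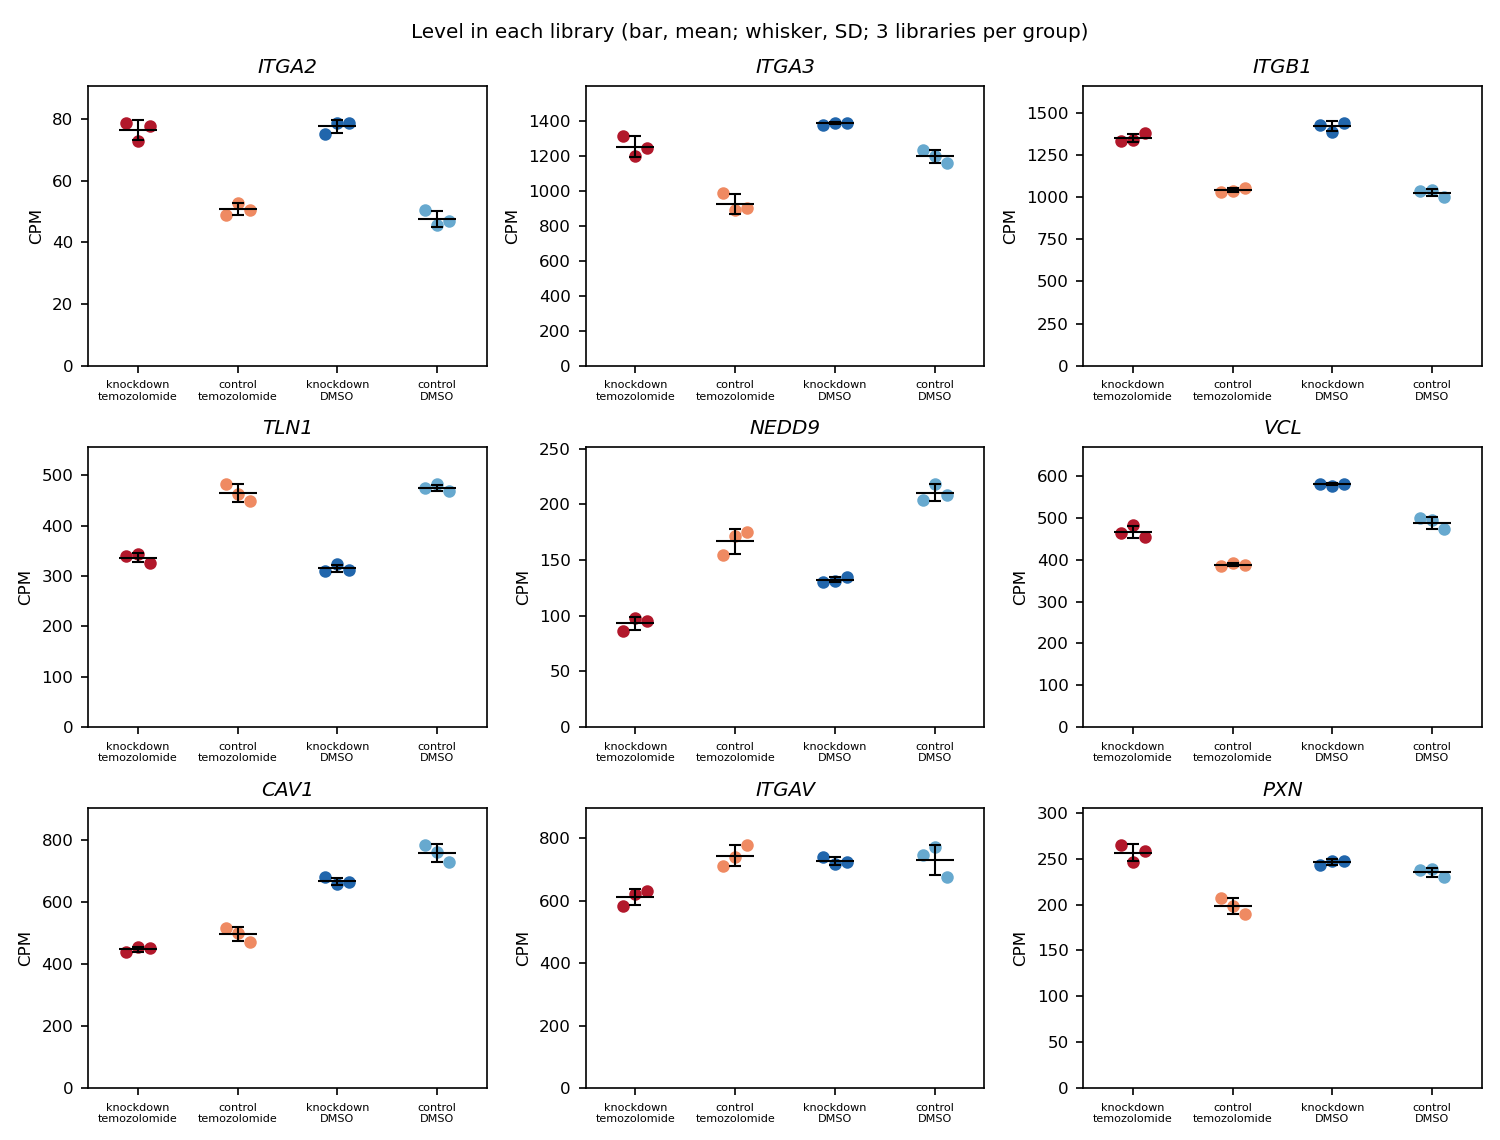
Level of 9 members in each library (points, CPM, axes from 0), with the group mean (bar) and SD (whisker) for 3 libraries per group in the order knockdown temozolomide, control temozolomide, knockdown DMSO, control DMSO. ITGA2 and ITGB1 separate by hairpin, CAV1 mainly by drug, and ITGAV is lowest in the knockdown temozolomide group, where it lay between 583 and 630.2 CPM.

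Because FPKM values are per length, levels of the chains can be set against each other. The summed level of all alpha chains was 483 ± 12.3 FPKM in knockdown temozolomide, 398.5 ± 8.83 FPKM in control temozolomide, 506.8 ± 2.97 FPKM in knockdown DMSO and 446.8 ± 14.3 FPKM in control DMSO libraries (SD, n = 3 each). Within that sum ITGA3 held 56.6% ± 1.35, 49.8% ± 1.22, 56.8% ± 0.418 and 54.7% ± 0.711 in the same order of groups. ITGAV held 19.4% ± 1.04, 27.1% ± 1.44, 20.4% ± 0.296 and 23.3% ± 0.541. The knockdown and control libraries of the same treatment did not overlap in either share, so ITGA3 took a larger and ITGAV a smaller part of the alpha chain transcripts in knockdown cells. The summed beta chains stood at 515.4 ± 4.49 FPKM in knockdown temozolomide, 411.7 ± 1.96 FPKM in control temozolomide, 540.5 ± 9.27 FPKM in knockdown DMSO and 423.9 ± 3.15 FPKM in control DMSO libraries. ITGB1 held 72.4% ± 0.384, 68.1% ± 0.85, 69.4% ± 0.479 and 62.3% ± 0.74 of that sum, again without overlap between knockdown and control libraries. ITGB4 held 15.7% ± 0.445, 16.5% ± 0.426, 19.5% ± 0.714 and 22.5% ± 0.182, and its knockdown and control libraries overlapped under temozolomide. No test was run on these shares, and a transcript share says nothing of which chains pair.

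**Figure D4:**
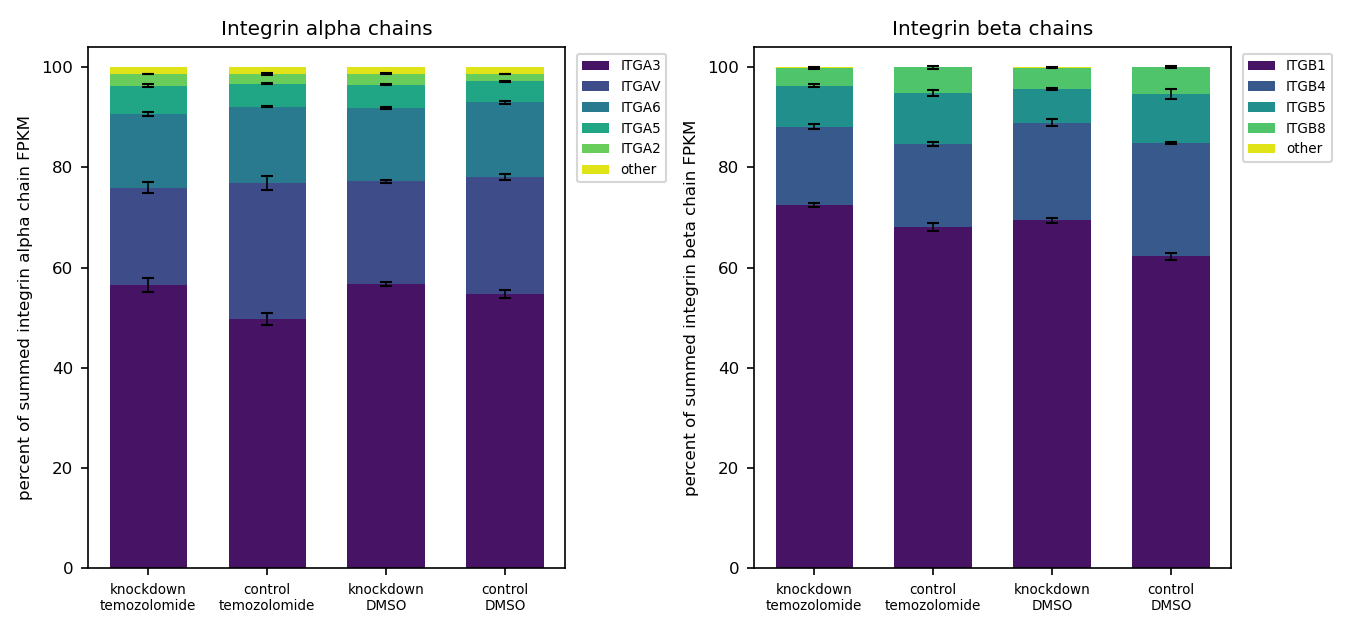
Share of each alpha chain in the summed alpha chain FPKM and of each beta chain in the summed beta chain FPKM (percent, mean of 3 libraries) in the 4 groups. ITGA3 makes up 49.8% to 56.8% of the alpha chains and ITGB1 62.3% to 72.4% of the beta chains.

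Of the 10 proteins that link integrins to actin, temozolomide lowered 8 in knockdown cells and 7 in control cells and raised none. Of all genes, 13.2% and 15.8% were called lower in these comparisons. Knockdown raised 5 and lowered 2 under temozolomide, and raised 4 and lowered 2 under DMSO. Of all genes, 22% were called higher and 20.3% lower under temozolomide, and 21.1% higher and 21.4% lower under DMSO. The falls with knockdown were thus near the share of all genes. TLN1, the ubiquitous talin (chr9:35696948-35732395, minus strand), was the largest fall with knockdown in this set under both treatments. TLN1 had 339, 344 and 326 CPM in the knockdown temozolomide libraries, against 484, 463 and 449 CPM in the control temozolomide libraries. Under DMSO, TLN1 had 311, 323 and 311 CPM in the knockdown libraries, against 474, 482 and 468 CPM in the control libraries. The knockdown libraries of TLN1 all lay below the control libraries, and the control temozolomide libraries overlapped with the control DMSO libraries. Knockdown changed TLN1 by −0.47 (SE 0.03, adjusted p = 6.3e-10) under temozolomide and −0.59 (SE 0.03, adjusted p = 1.9e-11) under DMSO, and its temozolomide changes, 0.09 in knockdown and −0.03 in control cells, did not pass the test. TLN2, the second talin, stood at 0.01 and −0.07 with knockdown under temozolomide and DMSO, neither of them called. The ratio of TLN1 to TLN2 on the FPKM scale was 5.92 ± 0.252 in knockdown temozolomide and 8.17 ± 0.279 in control temozolomide libraries, and 4.88 ± 0.124 in knockdown DMSO and 7.19 ± 0.193 in control DMSO libraries. TLN1 thus moved against ITGB1, the chain it binds: TLN1 over ITGB1 was 0.108 ± 0.00467 and 0.194 ± 0.00936 under temozolomide, and 0.0965 ± 0.00411 and 0.201 ± 0.00171 under DMSO, in knockdown and control libraries.

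Vinculin (VCL), which binds stretched talin, went the other way with knockdown. VCL had 464, 482 and 454 CPM in the knockdown temozolomide libraries, against 385, 393 and 387 CPM in the control temozolomide libraries. Under DMSO, VCL had 583, 578 and 581 CPM in the knockdown libraries, against 499, 494 and 473 CPM in the control libraries. No group of VCL overlapped with another in the 4 comparisons. Knockdown changed VCL by 0.26 (SE 0.03, adjusted p = 9.5e-07) under temozolomide and 0.25 (SE 0.03, adjusted p = 2.1e-06) under DMSO, and temozolomide by −0.31 (SE 0.03, adjusted p = 3.1e-07) in knockdown and −0.33 (SE 0.03, adjusted p = 1.7e-07) in control cells. ACTN1, an alpha-actinin that crosslinks actin bundles, had a larger rise. ACTN1 had 413, 375 and 365 CPM in the knockdown temozolomide libraries, against 271, 255 and 247 CPM in the control temozolomide libraries. Under DMSO, ACTN1 had 449, 468 and 437 CPM in the knockdown libraries, against 328, 332 and 324 CPM in the control libraries. ACTN1 was higher in all knockdown than in all control libraries of each treatment, by 0.58 (SE 0.04, adjusted p = 9.6e-10) under temozolomide and 0.46 (SE 0.04, adjusted p = 2.3e-08) under DMSO, and lower with temozolomide, at −0.23 (SE 0.04, adjusted p = 0.000506) in knockdown and −0.35 (SE 0.04, adjusted p = 5.7e-06) in control cells. Its close relative ACTN4 was called higher with knockdown under temozolomide only, at 0.13 (SE 0.04, adjusted p = 0.00687), and that call ended without control temozolomide library 3 or knockdown temozolomide library 1 (adjusted p = 0.0538 to 0.0574). Under DMSO the ACTN4 change was −0.02. With temozolomide ACTN4 was called lower, at −0.29 in knockdown and −0.44 in control cells. Of the exon bases of ACTN4, 14.23% overlap CAPN12 on the opposite strand, and of those of VCL 11.1% overlap AP3M1, and the kit named in the labels does not mark strand.

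Filamin A (FLNA), a large actin crosslinker, was the second most abundant member, at 309.5 FPKM. It averaged 2409.6 ± 93.1 CPM in knockdown temozolomide, 1987 ± 57.2 CPM in control temozolomide, 2835 ± 81.1 CPM in knockdown DMSO and 2482 ± 53.3 CPM in control DMSO cells (SD, n = 3 each). FLNA rose with knockdown by 0.28 and 0.19 under temozolomide and DMSO, and its temozolomide changes were −0.23 and −0.32 in knockdown and control cells, all 4 of them called. The tensin TNS3 was called with the drug and not with knockdown. TNS3 had 114, 122 and 107 CPM in the knockdown temozolomide libraries, against 110.4, 110.3 and 107 CPM in the control temozolomide libraries. Under DMSO, TNS3 had 159, 169.6 and 159 CPM in the knockdown libraries, against 149, 167 and 152 CPM in the control libraries. All temozolomide libraries of TNS3 lay below all DMSO libraries, while knockdown and control libraries overlapped under each treatment. Temozolomide changed TNS3 by −0.50 (SE 0.05, adjusted p = 1.8e-07) in knockdown and −0.51 (SE 0.05, adjusted p = 1.5e-07) in control cells. TNS1, another tensin, was below 3 CPM everywhere and was called higher with knockdown, at 1.89 (SE 0.32, adjusted p = 6.7e-05) under temozolomide and 1.69 (SE 0.32, adjusted p = 0.000195) under DMSO. The kindlins differed. FERMT1 had 35.3, 35.8 and 38.0 CPM in the knockdown temozolomide libraries, against 41.8, 41.1 and 39.3 CPM in the control temozolomide libraries. Under DMSO, FERMT1 had 49.0, 47.1 and 49.1 CPM in the knockdown libraries, against 53.8, 60.7 and 57.9 CPM in the control libraries. FERMT1, the epithelial kindlin, was lower in knockdown than in control libraries and lower with temozolomide than with DMSO, each without overlap, with changes of −0.17, −0.25, −0.41 and −0.49 for knockdown under temozolomide, knockdown under DMSO, temozolomide in knockdown cells and temozolomide in control cells. The first of these calls ended without control temozolomide library 1 or knockdown temozolomide library 1 or 2 (adjusted p = 0.0644 to 0.0709), and also with library totals alone and in the 3 FPKM fits (adjusted p = 0.0573 to 0.0899). FERMT2, the widely expressed kindlin, had 1 call, −0.15 (SE 0.04, adjusted p = 0.0161) with temozolomide in knockdown cells, lost without knockdown DMSO library 1 or knockdown temozolomide library 1 (adjusted p = 0.0655 to 0.0822).

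Zyxin (ZYX) gathers at adhesions and stress fibres under tension. ZYX had 74.1, 80.2 and 71.2 CPM in the knockdown temozolomide libraries, against 50.7, 46.8 and 46.3 CPM in the control temozolomide libraries. Under DMSO, ZYX had 84.5, 85.9 and 87.0 CPM in the knockdown libraries, against 60.5, 61.4 and 61.4 CPM in the control libraries. The 4 groups of ZYX were apart in every comparison, with knockdown libraries above control libraries and temozolomide libraries below DMSO libraries. Knockdown changed ZYX by 0.65 (SE 0.05, adjusted p = 9.8e-10) under temozolomide and 0.49 (SE 0.05, adjusted p = 4.7e-08) under DMSO, and temozolomide by −0.19 (SE 0.05, adjusted p = 0.0062) in knockdown and −0.34 (SE 0.05, adjusted p = 3.2e-05) in control cells. LPP, a zyxin relative, was called lower with knockdown under temozolomide, at −0.15 (SE 0.05, adjusted p = 0.0233), and with temozolomide in knockdown cells, at −0.27 (SE 0.05, adjusted p = 0.000795). The first LPP call ended without control temozolomide library 2 or 3 or knockdown temozolomide library 1 or 3 (adjusted p = 0.0542 to 0.116), and on the FPKM scale the LPP change was above 0. VASP, which helps actin filaments grow, fell with temozolomide, at −0.24 in knockdown and −0.41 in control cells. Its 1 knockdown call, −0.15 (SE 0.06, adjusted p = 0.0408) under DMSO, was lost without control DMSO library 1 or 3 or knockdown DMSO library 1 or 3 (adjusted p = 0.0599 to 0.274), and also in 6 of 11 other alternatives: DESeq2, library totals alone, the GC trend removed and the 3 FPKM fits (adjusted p = 0.0536 to 0.173). TGFB1I1, a paxillin relative, averaged 7.42 ± 0.158 CPM in knockdown temozolomide and 6.10 ± 0.430 CPM in control temozolomide cells, against 8.55 ± 0.592 CPM in knockdown DMSO and 8.12 ± 0.092 CPM in control DMSO cells. Temozolomide changed it by −0.40 (SE 0.11, adjusted p = 0.00848) in control cells, and its knockdown call under temozolomide, 0.28 (SE 0.11, adjusted p = 0.0488), was lost in 11 of 12 fits that left out a library.

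Several of these actin-linked genes are known targets of serum response factor, which binds the CArG box, and the promoters were therefore read for that motif. RefSeq promoter windows of GRCh38.p14, from 250 bases before to 50 after a start, were at hand for 34 of the 44 members (70 windows, some genes having several). The CArG box was found on either strand in 5 of the 70 windows (7.14%), against 1.29% of 35116 windows of all genes. Because the motif was chosen with known targets among the members, the higher share is a description and not a test. The 5 are shown with the box in capitals, each on the strand of its gene, read 5′ to 3′.
FLNA, chrX:154374694-154374753, minus strand: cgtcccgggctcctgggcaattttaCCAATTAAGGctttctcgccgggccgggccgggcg
ACTN1, chr14:68977703-68977762, minus strand: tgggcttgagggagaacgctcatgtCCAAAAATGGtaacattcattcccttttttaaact
TGFB1I1, chr16:31473129-31473188, plus strand: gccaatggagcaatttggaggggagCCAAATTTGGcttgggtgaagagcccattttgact
LPP, chr3:188212504-188212563, plus strand: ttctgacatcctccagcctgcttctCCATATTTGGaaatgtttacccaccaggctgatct
ITGB6, chr2:160200298-160200357, minus strand: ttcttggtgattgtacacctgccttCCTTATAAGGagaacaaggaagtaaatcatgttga
The boxes begin at −94 for FLNA, −171 for ACTN1, −51 for TGFB1I1, −183 for LPP and −60 for ITGB6, counted from the start base, and those of ACTN1, TGFB1I1 and LPP lie in 1 of 4, 1 of 3 and 1 of 7 windows of the gene. Of these 5 genes, FLNA and ACTN1 were called higher with knockdown under both treatments and lower with temozolomide in both kinds of cell. TGFB1I1 was called in 1 comparison of each kind, LPP was called lower in 1 of each kind, and ITGB6 was not tested. ITGA3, ITGA6, VCL and ZYX had the same calls as FLNA and ACTN1. No box was found in the windows of ITGA6, VCL and ZYX, and ITGA3 had no window. A box outside the windows would have been missed, so whether these genes lack a box was not settled. A match is a description of the letters and not a bound site.

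For 4 other motifs the counts were as follows. The TEAD motif GGAATG was found in 10 of the 70 windows of members and in 4928 of all 35116 windows, the AP-1 motif TGANTCA in 10.0% of the members' windows and 7.71% of all windows, and the SP1 motif GGGCGG in 58.6% and 45.0%, each on either strand. The TATA box TATAAA was found in 5.71% and 11.5%. The members' windows had a median GC content of 64.7%, against 58.7% for all windows.

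Of the 6 signalling proteins, knockdown raised 3 and lowered 1 under temozolomide, and raised 1 and lowered 1 under DMSO, and temozolomide lowered 1 in knockdown and 5 in control cells. Their called shares for knockdown under DMSO, 33.3%, and for temozolomide in knockdown cells, 16.7%, were thus below the 42.6% and 22.3% of all genes. NEDD9 (chr6:11183298-11382348, minus strand) and BCAR1 belong to 1 family of scaffolds that SRC and PTK2 phosphorylate, and they moved apart. NEDD9 had 86.6, 97.6 and 95.5 CPM in the knockdown temozolomide libraries, against 154, 172 and 175 CPM in the control temozolomide libraries. Under DMSO, NEDD9 had 130.4, 131 and 135 CPM in the knockdown libraries, against 204, 219 and 209 CPM in the control libraries. NEDD9 was lower in each knockdown library than in each control library and lower with temozolomide than with DMSO, without overlap. Knockdown changed NEDD9 by −0.84 (SE 0.05, adjusted p = 2.5e-11) under temozolomide and −0.67 (SE 0.05, adjusted p = 4.8e-10) under DMSO, the largest falls of any member, and temozolomide by −0.50 (SE 0.05, adjusted p = 3.2e-07) in knockdown and −0.34 (SE 0.05, adjusted p = 1.9e-05) in control cells. BCAR1 had 49.3, 46.0 and 44.0 CPM in the knockdown temozolomide libraries, against 30.0, 27.4 and 26.9 CPM in the control temozolomide libraries. Under DMSO, BCAR1 had 42.9, 48.7 and 46.2 CPM in the knockdown libraries, against 32.8, 32.8 and 34.7 CPM in the control libraries. BCAR1 was higher in each knockdown library than in each control library of the same treatment. Knockdown changed BCAR1 by 0.72 (SE 0.06, adjusted p = 7.3e-09) under temozolomide and 0.46 (SE 0.06, adjusted p = 4.2e-06) under DMSO, while with temozolomide it was at 0.02 in knockdown cells, which was not called, and fell in control cells, at −0.24 (SE 0.06, adjusted p = 0.00784). That fall of BCAR1 was no longer called with the GC trend removed or in the FPKM fits.

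Paxillin (PXN) is the adaptor that docks these kinases. PXN had 266, 247 and 258 CPM in the knockdown temozolomide libraries, against 207, 198 and 189 CPM in the control temozolomide libraries. Under DMSO, PXN had 243, 248 and 248 CPM in the knockdown libraries, against 238, 238 and 229.8 CPM in the control libraries. The control temozolomide libraries of PXN were the low ones. The knockdown log2 fold change of PXN was 0.37 (SE 0.04, adjusted p = 8.9e-08) under temozolomide, which was called, and 0.07 (SE 0.04, adjusted p = 0.172) under DMSO, which was not. PTK2 had 169, 178 and 172 CPM in the knockdown temozolomide libraries, against 152, 151 and 153 CPM in the control temozolomide libraries. Under DMSO, PTK2 had 170.2, 175 and 172 CPM in the knockdown libraries, against 168, 164 and 159 CPM in the control libraries. PTK2, the focal adhesion kinase, showed the same order at a smaller size, with 0.19 (SE 0.03, adjusted p = 0.000138) under temozolomide and 0.07 (SE 0.03, adjusted p = 0.0865) under DMSO. Its fall with temozolomide in control cells, −0.11 (SE 0.03, adjusted p = 0.0204), was lost without control DMSO library 1 or 2 or control temozolomide library 2 (adjusted p = 0.0519 to 0.124), and on the FPKM scale the change was above 0. SRC had 6.71, 6.83 and 5.53 CPM in the knockdown temozolomide libraries, against 5.53, 3.99 and 5.50 CPM in the control temozolomide libraries. Under DMSO, SRC had 7.32, 8.91 and 7.58 CPM in the knockdown libraries, against 7.11, 6.04 and 8.58 CPM in the control libraries. SRC was scarce, and its knockdown and control libraries overlapped under both treatments, with uncalled changes of 0.34 under temozolomide and 0.13 under DMSO. Temozolomide changed SRC by −0.52 (SE 0.15, adjusted p = 0.0148) in control cells, a call that ended without control DMSO library 3 or control temozolomide library 2 (adjusted p = 0.081 to 0.113). CRK, an adaptor that binds BCAR1, ran from 134.2 to 146.6 CPM over all 12 libraries and was called in no comparison.

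In the complex of ILK, LIMS1 and PARVA, knockdown raised the first 2 under both treatments, by small steps. ILK averaged 57.1 ± 2.09 CPM in knockdown temozolomide and 52.9 ± 0.769 CPM in control temozolomide cells, and 60.5 ± 0.604 CPM in knockdown DMSO and 53.2 ± 1.08 CPM in control DMSO cells (SD, n = 3 each). Its knockdown changes were 0.11 (SE 0.04, adjusted p = 0.0409) under temozolomide, a call lost in 10 of 12 fits that left out a library, and 0.19 (SE 0.04, adjusted p = 0.0018) under DMSO. Since 68.14% of the exon bases of ILK overlap TAF10 on the opposite strand, its counts may include reads of TAF10 and are uncertain. LIMS1 changed by 0.11 (SE 0.04, adjusted p = 0.0249) and 0.31 (SE 0.04, adjusted p = 1.4e-06) with knockdown under temozolomide and DMSO, and by −0.30 (SE 0.04, adjusted p = 8.0e-06) with temozolomide in knockdown cells. LIMS1 has near-identical copies in the genome, which leaves its level uncertain, and its knockdown call under temozolomide was lost without control temozolomide library 2 or 3 or knockdown temozolomide library 3 (adjusted p = 0.064 to 0.158). PARVA was called in no comparison.

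Caveola coat genes fell with the drug. CAV1 had 438, 453 and 449 CPM in the knockdown temozolomide libraries, against 516, 498 and 470.1 CPM in the control temozolomide libraries. Under DMSO, CAV1 had 679, 657 and 662 CPM in the knockdown libraries, against 784, 759 and 727 CPM in the control libraries. The 4 groups of CAV1, the principal caveolin (chr7:116524785-116561184, plus strand), were apart in every comparison, and the temozolomide libraries were all below the DMSO libraries. Temozolomide changed CAV1 by −0.58 (SE 0.04, adjusted p = 3.4e-10) in knockdown and −0.61 (SE 0.04, adjusted p = 2.1e-10) in control cells, and knockdown by −0.15 (SE 0.04, adjusted p = 0.0023) under temozolomide and −0.18 (SE 0.04, adjusted p = 0.000285) under DMSO. CAVIN1 had 406, 420.4 and 417 CPM in the knockdown temozolomide libraries, against 520.3, 509.8 and 485 CPM in the control temozolomide libraries. Under DMSO, CAVIN1 had 585, 601 and 584 CPM in the knockdown libraries, against 690.0, 707 and 724 CPM in the control libraries. CAVIN1, which stabilises the coat, followed the same order of groups. Its temozolomide changes were −0.51 (SE 0.03, adjusted p = 4.7e-10) in knockdown and −0.49 (SE 0.03, adjusted p = 8.9e-10) in control cells, and its knockdown changes −0.29 (SE 0.03, adjusted p = 5.5e-07) under temozolomide and −0.26 (SE 0.03, adjusted p = 1.5e-06) under DMSO. CAV2, which needs CAV1 to reach the surface, fell with temozolomide, at −0.48 in knockdown and −0.31 in control cells, and its knockdown changes of −0.09 and 0.09 were not called. The ratio of CAV1 to CAV2 on the FPKM scale was 2.42 ± 0.0407 in knockdown temozolomide, 2.42 ± 0.0415 in control temozolomide, 2.58 ± 0.0851 in knockdown DMSO and 3.19 ± 0.0873 in control DMSO libraries.

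The knockdown effects under temozolomide and under DMSO come from separate libraries and can be set against each other. Of the members, 20 were called in both and all 20 in the same direction, which is 69% of the 29 called under temozolomide and 83.3% of the 24 called under DMSO. Over all genes, 3746 were called in both and 3726 of them in the same direction, 69% of those called under temozolomide and 68.6% of those under DMSO. The 15 higher in both were ITGA1, ITGA2, ITGA3, ITGA5, ITGA6, ITGB1, ITGB3, VCL, ZYX, ACTN1, FLNA, BCAR1, ILK, LIMS1 and TNS1, and the 5 lower in both were TLN1, FERMT1, CAV1, CAVIN1 and NEDD9. Across the 42 members the log2 fold changes had a Pearson r of 0.84 and a Spearman rho of 0.74, a description across genes that share their libraries. The temozolomide effects in knockdown and in control cells also use separate libraries. Of the members, 17 were called lower in both, 73.9% of the 23 called in knockdown cells and 70.8% of the 24 in control cells, where 57.5% and 46.5% of all called genes were shared. The 17 were ITGA3, ITGA6, ITGB4, ITGB8, TLN2, VCL, ZYX, ACTN1, ACTN4, FLNA, TNS3, FERMT1, VASP, CAV1, CAV2, CAVIN1 and NEDD9, and Pearson r over the 42 was 0.43 and Spearman rho 0.55. Knockdown and temozolomide comparisons share libraries, so their values are given side by side only.

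**Figure D5:**
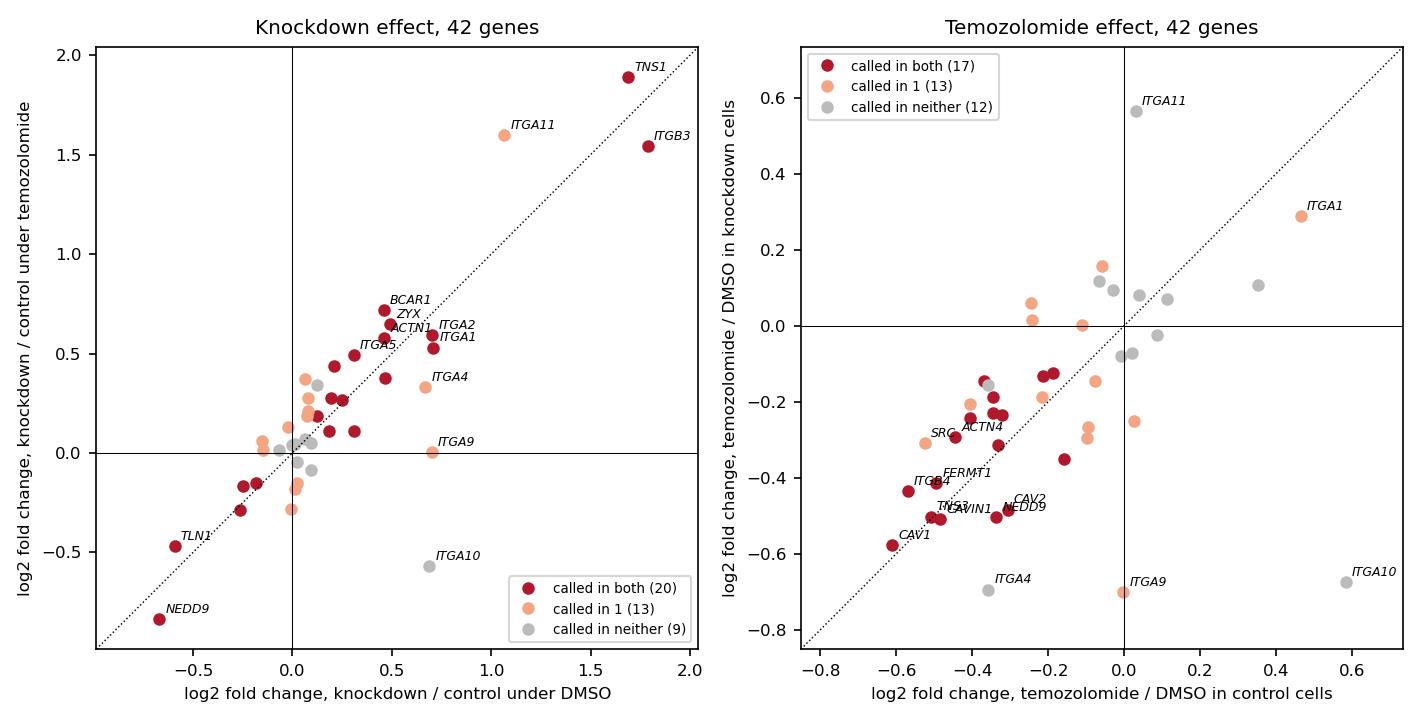
Log2 fold change with knockdown under temozolomide against that under DMSO (left) and with temozolomide in knockdown against control cells (right) for the 42 tested members. NEDD9 and TLN1 lie at the lower left of the knockdown panel, at −0.84 and −0.47 under temozolomide and −0.67 and −0.59 under DMSO.

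Whether knockdown acted differently under temozolomide and DMSO was tested by the difference of the 2 knockdown effects, for which 1.05% of all genes were called (0.437% higher and 0.616% lower). It passed for 2 of 42 members. For PXN the difference was 0.30 (SE 0.05, adjusted p = 0.0111), with knockdown effects of 0.37 under temozolomide and 0.07 under DMSO, and it was lost without control DMSO library 1 (adjusted p = 0.0511) and with the GC trend removed. For ITGAV it was −0.28 (SE 0.06, adjusted p = 0.0377), with −0.28 under temozolomide and −0.01 under DMSO, and it was lost when any 1 of 8 libraries was left out (adjusted p = 0.0503 to 0.108) and with the GC trend removed. Removing that trend left 33 of 12782 genes called for the difference, where 135 were called before. For the other 40 tested members no difference was shown, which does not make the effects equal.

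Other genes of the pathway were counted in lists. Of 49 further adhesion adaptors and signalling proteins tested, 23 were higher and 9 lower with knockdown under each treatment, a called share of 65.3% each time, against 42.3% of all genes under temozolomide and 42.6% under DMSO. KANK1, which links adhesions to microtubules, rose by 0.89 under temozolomide and 0.82 under DMSO, and ASAP1, an Arf regulator at adhesions, by 0.62 and 0.65. The falls included the actin bundler PALLD (−0.43 and −0.35) and the intermediate filament protein SYNM (−0.44 and −0.39). With temozolomide, 4 were higher and 15 lower in each kind of cell, or 38.8%, against 22.3% of all genes in knockdown and 27.5% in control cells. LASP1, an actin-binding protein, was among the falls (−0.31 in knockdown and −0.35 in control cells). Of 22 regulators of integrin activity and trafficking, 9 were higher and 2 lower with knockdown under temozolomide, and 9 higher and 4 lower under DMSO, called shares of 50.0% and 59.1%, against 42.3% and 42.6% of all genes. With temozolomide 2 were higher and 6 lower in knockdown cells and 2 higher and 7 lower in control cells, or 36.4% and 40.9%, against 22.3% and 27.5% of all genes. Among the tetraspanins, membrane organisers that bind integrins, CD81 was called lower with knockdown under DMSO, at −0.17. CD82 rose by 0.71 and 0.73 and CD9 changed by −0.39 and −0.47 with knockdown under temozolomide and DMSO. MYO10, a motor that carries integrins into filopodia, rose by 0.50 and 0.43. Of the 3 tested among 8 other integrin chains, ITGAE alone was called, at −0.32 with knockdown under temozolomide.

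Of 35 integrin ligands tested, 23 were higher and 3 lower with knockdown under temozolomide, and 18 higher and 5 lower under DMSO, called shares of 74.3% and 65.7%, against 42.3% and 42.6% of all genes. The median log2 fold change of the ligands was 0.37 with knockdown under temozolomide, 0.27 with knockdown under DMSO, −0.17 with temozolomide in knockdown cells and −0.27 with temozolomide in control cells. CCN1, a matrix-bound ligand of several integrins, rose by 1.10 under temozolomide and 1.34 under DMSO, SPP1 (osteopontin) by 1.20 and 1.17, and LAMB1, a laminin chain, by 0.97 and 1.08. POSTN (periostin) fell, at −0.65 and −0.50. With temozolomide, 2 ligands were higher and 18 lower in each kind of cell, or 57.1%, against 22.3% of all genes in knockdown and 27.5% in control cells, with THBS1 (thrombospondin) at −0.88 in knockdown and −0.83 in control cells and the collagen gene COL1A2 at −0.98 and −0.92. Another list held actin cytoskeleton genes known as targets of serum response factor, together with the factor itself (SRF) and its coactivators MRTFA and MRTFB. It shares TGFB1I1 with the members. Of its 26 tested genes, 17 were higher and 1 lower with knockdown under temozolomide and 12 higher and 1 lower under DMSO. The called shares were 69.2% and 50.0%, against 42.3% and 42.6% of all genes. With temozolomide 0 of these 26 were higher and 14 lower in knockdown cells, and 0 higher and 18 lower in control cells. These are 53.8% and 69.2%, against 22.3% and 27.5% of all genes. CALD1 (caldesmon) changed by −0.73 and −0.54, and the nonmuscle myosin MYH9 rose with knockdown by 0.38 under temozolomide and 0.35 under DMSO. Of 8 further caveola proteins, 5 were higher and 2 lower with knockdown under temozolomide, 3 higher and 1 lower under DMSO, 0 higher and 3 lower with temozolomide in knockdown cells, and 0 higher and 5 lower in control cells, called shares of 87.5%, 50.0%, 37.5% and 62.5%. For these comparisons the shares of all genes were 42.3%, 42.6%, 22.3% and 27.5%, and a share among 8 genes moves by 12.5 percentage points with 1 gene. CAVIN2, a coat protein like CAVIN1, changed by −0.36 and −0.20 with knockdown under temozolomide and DMSO, whereas CAVIN3 rose by 0.74 and 0.26.

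Markers of epithelium were called lower with knockdown and mostly also with temozolomide. All 4 tested of 6 were lower with knockdown under both treatments and 3 of the 4 with temozolomide in both kinds of cell, and their summed level ran from 218 to 252 FPKM in knockdown temozolomide, 373 to 387 FPKM in control temozolomide, 294 to 315 FPKM in knockdown DMSO and 455 to 471 FPKM in control DMSO libraries, most of it from KRT8, KRT18 and KRT14. EPCAM and CDH1, which define epithelial cells, averaged 0.035 and 0.011 FPKM. The summed glial and glioblastoma markers, mostly VIM, ran from 1865 to 1977 FPKM in knockdown temozolomide, 1543 to 1626 FPKM in control temozolomide, 2219.9 to 2249 FPKM in knockdown DMSO and 1923 to 2012 FPKM in control DMSO libraries. VIM carries that sum, with called changes of 0.32 and 0.19 with knockdown under temozolomide and DMSO, whereas SOX2 was called lower, at −0.54 and −0.42. Of the leukocyte markers, CD3E was at 0 in every library and PTPRC averaged 0.133 FPKM, with the summed level of 18.5 to 19.0 FPKM in knockdown temozolomide, 10.1 to 10.9 FPKM in control temozolomide, 16.8 to 18.6 FPKM in knockdown DMSO and 8.92 to 12.9 FPKM in control DMSO libraries coming mainly from CD68. Fibroblast markers, mainly COL1A2, with DCN and LUM at 0.008 and 0.027 FPKM, summed to 18.8 to 20.9 FPKM in knockdown temozolomide, 21.1 to 24.1 FPKM in control temozolomide, 34.9 to 38.0 FPKM in knockdown DMSO and 40.6 to 42.1 FPKM in control DMSO libraries. COL1A2 was called lower with knockdown, at −0.28 under temozolomide and −0.22 under DMSO, while PDGFRB was called higher, at 1.43 and 0.93, and COL1A1 higher under temozolomide, at 1.12, with PDGFRB and COL1A1 averaging 0.283 and 0.459 FPKM. Endothelial markers, mainly CDH5, with PECAM1 at 0.132 FPKM, summed to 3.72 to 3.96, 5.47 to 6.55, 7.80 to 8.04 and 11.1 to 12.2 FPKM in the same order of groups. CDH5 was called lower with knockdown, at −0.77 under temozolomide and −0.67 under DMSO, while KDR, at 0.159 FPKM on average, was called higher, at 2.88 and 3.36, and PECAM1 higher under temozolomide, at 2.05. Neuronal markers, mainly TUBB3, with RBFOX3 at 0.103 FPKM, summed to 19.99 to 22.4, 11.7 to 14.1, 13.2 to 14.8 and 7.04 to 9.39 FPKM. The part of these shifts in the members' changes was not tested. In bulk samples of a single cell line, fewer cells with a marker and less of its RNA per cell cannot be told apart.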

How the data were processed

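Poly(A) RNA of 12 libraries of U251 cells (4 groups of 3) was measured, with groups taken from the labels. The authors deposited a table of estimated counts per gene, of which 10.7% to 12.0% were not whole per library, and a table of FPKM values, scaled by the authors for transcript length and depth. The tools named in the submitters' processing notes are RSEM, StringTie 1.3.1, HISAT2, Bowtie2 2.2.8 and fastp 0.18.0. Their roles, the build and the gene models used are not given in what was read here. Each of the 24 value columns belonged to a sample, 12 per table.

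After rounding, edgeR 4.0.16 (R 4.3.3) was run on the estimated counts: filterByExpr kept 12821 of 20289 genes (3153 had no count in any library), TMM scaled the libraries, and all 12 entered 1 quasi-likelihood fit of 4 means, with a biological coefficient of variation of 3.9%. P-values were adjusted by Benjamini-Hochberg over all genes tested and called below 0.05. A standard error is the absolute log2 fold change over the square root of F, and 95% intervals use the t distribution with 8 degrees of freedom. Depth per library, given above, sets the floor of 3 counts. The fit was tested on simulated counts. Transcript GC and exon overlaps came from GENCODE release 29 (GRCh38), which held 20171 of the 20289 gene IDs. Promoter windows are those of RefSeq.

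Members and gene lists were chosen with earlier results of these data known. Library values are given for members called with the largest changes among those reaching 5 CPM (up to 6 per direction for each knockdown comparison, 4 for each temozolomide comparison, 3 for the difference) and for 13 members always shown. From the lists, up to 3 genes per direction and comparison with the smallest p could be named. Alternatives were DESeq2 1.42.0, relative log expression factors, totals without factors, no filter and a stricter filter, the compared groups alone, the replicate number as a block, a GC correction, limma 3.58.1 on log2(FPKM + 1) and log2(FPKM + 0.1), an adjusted p below 0.01, and leaving out each library. No 2 libraries of a group agreed within sampling noise.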

Additional observations from a re-analysis of the deposited data

Results flagged for a closer look

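The difference between the knockdown effects under temozolomide and under DMSO was past the threshold for 2 of the 42 tested members. For PXN, the paxillin adaptor, it was 0.30 on the log2 scale (95% interval 0.18 to 0.43), with the control temozolomide libraries at 189 to 207 CPM and the other 9 libraries at 229.8 to 266 CPM. For ITGAV, the alpha chain of the vitronectin receptors, it was −0.28 (95% interval −0.42 to −0.14), with the knockdown temozolomide libraries at 583 to 630.2 CPM and the other 9 at 676 to 780.1 CPM. The same 2 values are the differences between the temozolomide responses of knockdown and control cells. Both were no longer called with the GC trend removed or on the FPKM scale. The fit with the GC trend removed called 33 of 12782 genes for the difference. The 3 FPKM fits called 0 genes for it, so the calls lost there say nothing particular to PXN or ITGAV.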

How the results depend on the processing

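With library totals alone, the members' median log2 fold change was 0.159 and 0.135 for knockdown under temozolomide and DMSO, and −0.135 and −0.148 for temozolomide in knockdown and control cells, with 6 and 5 members higher. The medians of all genes with these totals were 0.045, 0.04, 0.067 and 0.063 in the same order. With the GC trend removed, the median was 0.143 for knockdown under DMSO and −0.172 for temozolomide in control cells, 4 and 0 members were higher with temozolomide in knockdown and control cells, and 0 were called for the difference in either direction. In the limma fits with log2(FPKM + 1), log2(FPKM + 0.1) and log2(FPKM + 1) without a filter, the median for knockdown under DMSO was 0.132, 0.137 and 0.125, that for temozolomide in knockdown cells −0.11, −0.121 and −0.074, and that in control cells −0.157, −0.158 and −0.101. In the first of these fits the medians of all genes were 0.025, 0.059 and 0.054 for the same comparisons. In the 3 limma fits, temozolomide gave 5, 5 and 3 members higher and 13, 13 and 13 lower in knockdown cells. In control cells these fits gave 2, 2 and 3 higher, and 14 lower without the filter. They gave 0 members for the difference in either direction, and 0 among all genes. DESeq2 gave 0 members higher with temozolomide in either kind of cell, and 2 higher and 2 lower for the difference. Without the low-count filter 0 were higher with temozolomide in control cells, and 2 higher and 4 lower for the difference, and the stricter filter gave 2 higher. Relative log expression factors gave 0 higher with temozolomide in knockdown cells, and the compared groups alone gave 0 in control cells, a fit that the difference does not allow because it needs all 4 groups. At an adjusted p below 0.01, 0 were higher with temozolomide in either kind of cell and 0 in either direction for the difference.

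The replicate numbers did not pair the libraries: correlations of deviations ran from −0.077 to 0.136 over 18 pairs, and for 6 of 12 libraries the best partner had the same number. With the replicate block, 20 members were higher and 8 lower with knockdown under temozolomide, 18 and 7 under DMSO, 3 and 23 with temozolomide in knockdown cells, 1 and 23 in control cells, and 2 and 1 for the difference.

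Leaving out each library gave 17 to 22 members higher and 6 to 8 lower with knockdown under temozolomide (median 0.108 to 0.188), and 15 to 18 higher and 5 to 7 lower under DMSO (0.073 to 0.125). It gave 0 to 3 higher and 18 to 23 lower with temozolomide in knockdown cells (−0.238 to −0.189), 0 to 1 and 20 to 24 in control cells (−0.245 to −0.172), and 0 to 4 and 0 to 2 for the difference (0.014 to 0.079). In every fit that tested the gene, calls held at an adjusted p below 0.05 for 19 of 29 members with knockdown under temozolomide, 19 of 24 under DMSO, 13 of 23 with temozolomide in knockdown cells, 14 of 24 in control cells and 0 of 2 for the difference. Among these, ITGA1, ITGB3, TNS1 and ITGA11 were too scarce for the 2 filtered FPKM fits, and ITGA11 also for the stricter filter, so their calls were not tried there. Directions turned for FERMT2 with knockdown under DMSO (−0.097 with the GC trend removed), LPP with knockdown under temozolomide (0.177, 0.203 and 0.177 in the FPKM fits) and PTK2 with temozolomide in control cells (0.039 in the FPKM fits); the cause was not tested. Depth limits the scarce chains: at under 3 CPM, ITGA4, ITGA9, ITGA10, ITGA11 and TNS1 rest on few counts.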
